A study of Mus musculus with 9 samples.

Results

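The cytosolic translation initiation and elongation factors were taken as the protein-coding genes whose GRCm38 symbol starts with Eif and a digit from 1 to 6, or with Eef and the digit 1 or 2, leaving out the 4 Eif2ak kinase genes. By this rule 63 of the 21811 protein-coding genes in the count table were members. A further 8 genes with a matching name that are not annotated as protein-coding were left out. RNA-seq counts were available for 9 libraries, 3 for each of 3 cell populations sorted from the same kind of co-culture. The astrocytes were primary neonatal cells of strain C57BL6 (mito::mKate2), grown from the subventricular zone of pups between postnatal days 0 and 3, in which a CAG promoter drives a red mKate2 protein targeted to mitochondria. The tumor cells were SB28, a GFP-expressing mouse glioblastoma line of C57BL6 origin, co-cultured with these astrocytes for 2 days without other treatment and then sorted as mKate2- or mKate2+, the latter having taken up astrocyte mitochondria. All 3 populations therefore shared the co-culture and its medium. The replicates came from 3 distinct co-cultures, and SB28 is a single line. Total counts ran from 24454561 to 39287841 per library, with a median of 34175016, and levels are given in the order of replicates 1, 2 and 3 in CPM, the count divided by the library's total and scaled to the same sum in every library.

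Initiation begins when eIF2, loaded with GTP and the initiator tRNA, joins the small ribosomal subunit together with eIF1, eIF1A, eIF5 and the large eIF3 complex. The eIF4F complex, made of the cap-binding protein eIF4E, the scaffold eIF4G and the helicase eIF4A, brings in the mRNA, and the eIF4E-binding proteins compete with eIF4G for eIF4E unless they are phosphorylated by mTORC1. eIF2B recharges eIF2 with GTP, eIF5B joins the ribosomal subunits, eEF1A delivers aminoacyl-tRNAs during elongation, eEF2 moves the ribosome along the mRNA, and eIF5A helps it past slow peptide bonds. Tumor cells are known for raised levels or activity of several of these factors, while brain cells are known for particular paralogs, among them the neuronal elongation factor Eef1a2.

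The libraries were first checked against their labels. The 10 astrocyte markers summed to 1036, 1019 and 1339 CPM in astrocytes, 464, 510 and 473 CPM in mKate2- and 497, 487 and 467 CPM in mKate2+ cells. Of the 9 tested, 7 were lower in each SB28 population than in astrocytes at an adjusted P value below 0.05 and 1, the gap junction gene Gja1, was higher. These 7 include Gfap, Slc1a2 and Aqp4, and in mKate2+ cells Slc1a3, which passed the filter of more than 1 CPM in at least 2 of 6 libraries only through the astrocytes, so the count is not read as support. Gja1 was the most abundant of the list in SB28 cells, and Apoe in astrocytes at a mean of 265 CPM against 2.85 and 2.47 CPM. The glutamate transporter gene Slc1a3 had means of 195, 1.48 and 0.835 CPM in astrocytes, mKate2- and mKate2+ SB28 cells, and Aldh1l1 had means of 141, 7.27 and 7.09 CPM. The astrocyte libraries also carried markers of the oligodendrocyte lineage. The 8 genes of that list summed to 847, 444 and 508 CPM in the astrocyte libraries against 18.2, 21.6 and 27 CPM in mKate2- and 22, 17.2 and 17.1 CPM in mKate2+ libraries, and 3 of 5 tested were lower in each SB28 population, 1 of them, Olig2, having passed the filter for mKate2+ cells only through the astrocytes. Olig1 was the most abundant of them in the astrocytes, while Sox10 and Mog, which mark committed oligodendrocyte lineage cells, stayed at or near 0. Among the microglia and macrophage markers, Tmem119 had means of 31.5, 51.6 and 53.9 CPM, while Cx3cr1 and Trem2 were at 0 in SB28 cells and at 0.0136 and 0.0699 CPM in astrocytes. The fibroblast, mural and endothelial list summed to means of 328, 217 and 184 CPM, mostly Col1a1. Of 4 proliferation markers, all 4 were higher in mKate2- and 3 in mKate2+ SB28 cells than in astrocytes, with sums of 328, 343 and 519 CPM in astrocytes, 1094, 1025 and 1140 CPM in mKate2- and 1135, 737 and 1037 CPM in mKate2+ cells, with Top2a the most abundant. The part of these cell type and proliferation differences in the results below was not tested, and in bulk RNA fewer cells of a type cannot be told apart from less RNA per cell.

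Some libraries differed from their replicates across many members. Within the astrocytes, replicate 3 was the lowest of the 3 libraries for 42 of 60 tested members (70%), against 34% of all 13356 genes, and replicate 1 was the highest for 34 (56.7% against 33.9%). In the mKate2- group replicate 2 was the lowest of the 3 for 41 of 60 members (68.3% against 37.9%). Among the 6 SB28 libraries it was the lowest for 20 of 58 members (34.5% against 13.9% of genes). The mKate2+ replicate 2 differed from the other SB28 libraries in both directions. It was the highest of the 6 for 21 of 58 members (36.2%, against 21% of 11854 genes) and the lowest for 24 (41.4%, against 47.3%). Its lowest members relative to the other 5 SB28 libraries were long and its highest were short, with Spearman's rho of -0.547 between exonic length and deviation over the 58 members and -0.495 over 11840 genes, a description across genes that share 1 library.

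**Figure D1:**
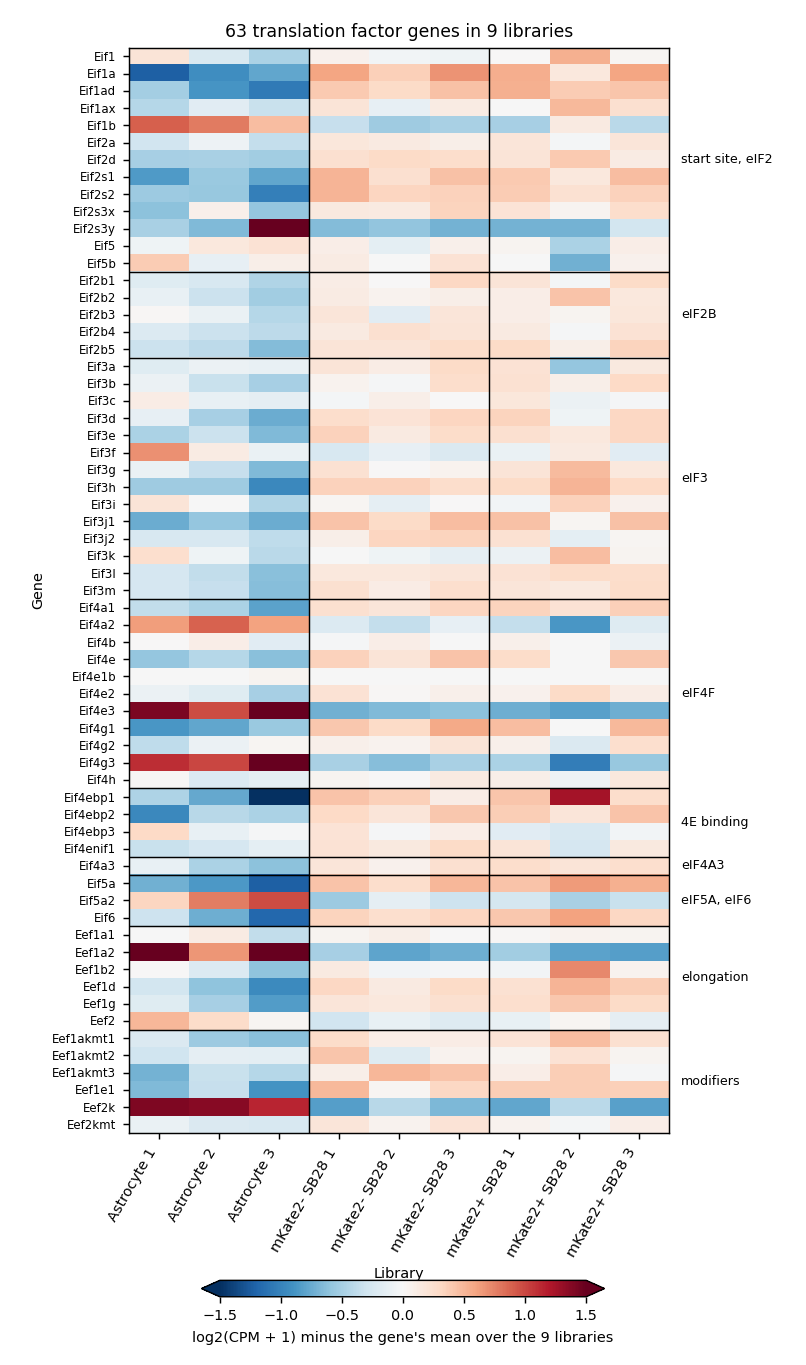
Level of each of the 63 members (rows, grouped by role) in each of the 9 libraries (columns), as log2(CPM + 1) minus the gene's mean over the 9 libraries, with colours saturating at 1.5 in either direction. Most rows are blue in the 3 astrocyte libraries and red in the 6 SB28 libraries, the rows of Eif4e3, Eif4g3, Eef1a2, Eef2k, Eif1b and Eif4a2 show the opposite, and mKate2+ replicate 2 differs from its neighbours in long genes such as Eif5b and short genes such as Eif4ebp1. Eif4e3 and Eef1a2 passed the filter for the tests only through the astrocytes.

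The factors as a group made up a larger share of the SB28 transcriptome than of the astrocyte transcriptome, and this held for the factors other than the very abundant Eef1a1 and Eef2. All 63 members summed to 2.74, 2.71 and 2.21% of counts in the astrocytes, 3, 2.99 and 3.04% in mKate2- and 3.04, 3.07 and 3.1% in mKate2+ SB28 cells. Eef1a1 and Eef2 together held 1.38% ± 0.215 (SD, n = 3) of counts in astrocytes, 1.34% ± 0.046 (SD, n = 3) in mKate2- and 1.36% ± 0.0321 (SD, n = 3) in mKate2+ cells, so that this part of the sum overlapped between populations. The other 61 members held 1.24, 1.2 and 1.07% in astrocytes, 1.69, 1.59 and 1.73% in mKate2- and 1.7, 1.67 and 1.74% in mKate2+ cells. The lowest SB28 library thus lay above the highest astrocyte library for these 61, at ratios of means of 1.43 for mKate2- and 1.45 for mKate2+ cells over astrocytes.

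**Figure D2:**
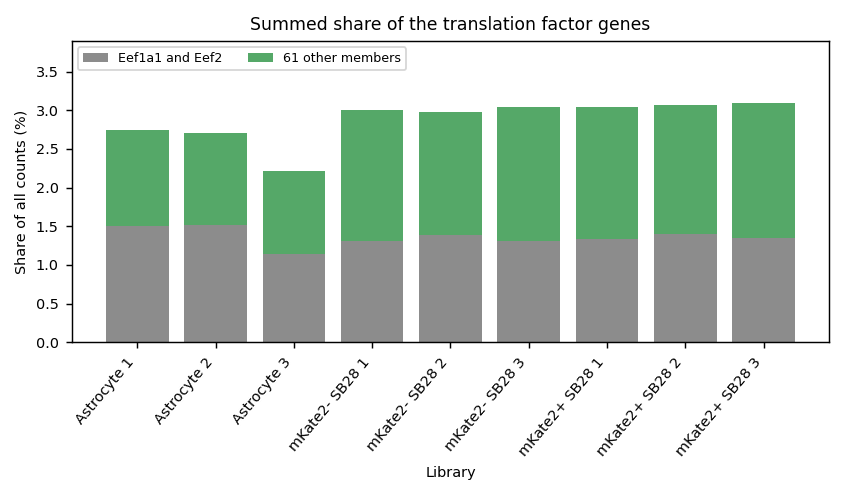
Share of all counts (vertical axis, %) held by Eef1a1 and Eef2 together (grey) and by the 61 other members (green), stacked for each of the 9 libraries. The grey part spans 1.14 to 1.51% across astrocytes and 1.31 to 1.4% across SB28 cells, whereas the green part is at most 1.24% in astrocytes and at least 1.59% in SB28 cells.

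The comparison of SB28 cells with astrocytes asks how tumor cells and their non-malignant co-culture partners differ in these genes. Each SB28 population was set against the same 3 astrocyte libraries, so the results for mKate2- and mKate2+ cells are given side by side and are not independent of each other. In mKate2- cells 60 members passed the filter, and 38 were higher and 8 lower than in astrocytes at an adjusted P value below 0.05, with 14 not called. These counts include 3 members, Eef1akmt3 among the higher and Eif4e3 and Eef1a2 among the lower, that passed the filter only through the group where they are high. Over all 13356 genes tested, 29.3% were higher and 33.8% lower, while the members' shares were 63.3 and 13.3%. In mKate2+ cells 59 members were tested, again with Eif4e3 and Eef1a2 among the lower. Of these 34 were higher, 7 lower and 18 not called, which is 57.6 and 11.9% of members beside 28.0% higher and 32.1% lower of 13342 genes. The median log2 fold change of the members was 0.46 in mKate2- and 0.59 in mKate2+ cells, against -0.038 and -0.018 over all genes tested. With the further requirement of a log2 fold change beyond 1 in size, 10 members were higher and 6 lower in mKate2- cells (11.5 and 22.4% of all genes), and 13 were higher and 6 lower in mKate2+ cells (12.2 and 22.8% of all genes). Most of the calls among members were therefore of a log2 fold change under 1 in size. Among the members tested in both comparisons, 34 were called higher in both, 7 lower in both and 14 in neither, and 0 were called in opposite directions. Eif3a, Eif3j2 and Eef2kmt were called higher and Eef2 lower in mKate2- cells alone, which does not show that the populations differ in them.

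**Figure D3:**
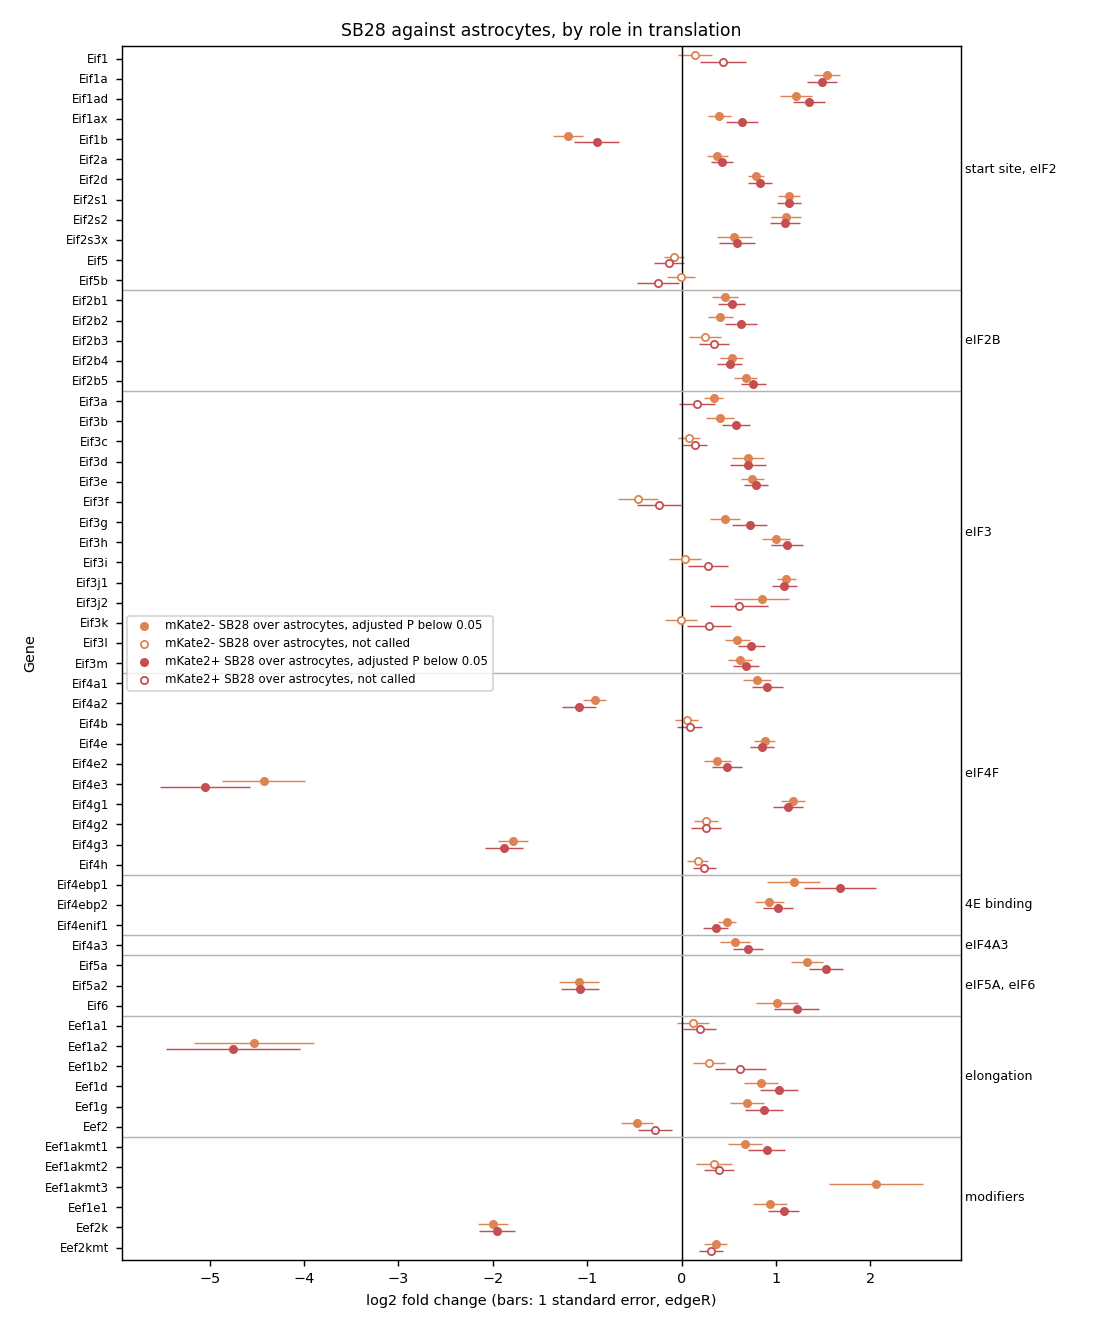
log2 fold change over astrocytes (horizontal axis) of each tested member (rows, grouped by role) in mKate2- (orange) and mKate2+ (red) SB28 cells, with bars of 1 standard error and filled points for an adjusted P value below 0.05. Most points lie to the right of the line at 0, between it and 1.68 in mKate2+ cells, and the points farthest to the left are Eif4e3 and Eef1a2, which passed the filter only through the astrocytes.

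Promoter sequence was examined as a property that the choice of genes did not use. The E-box letters CACGTG, which read the same on both strands and are the core bound by MYC and related factors, were looked for in RefSeq windows from 250 bases before to 50 bases after each annotated start (GRCm38.p6). Of the 47 members with a window, 12 held the letters in at least 1 window (25.5%), against 2187 of 27025 genes (8.09%). The latter are all genes with a window, more than the 21811 protein-coding or the 13356 tested genes. They were not matched to the members in expression or number of windows, so the gap is not read as particular to the members. Of these 12 members, 5 were higher and 4 lower in mKate2- SB28 cells than in astrocytes (41.7% and 33.3%, beside 29.3% and 33.8% of all genes). Of the 34 tested members with a window but without the letters, 23 were higher and 3 lower (67.6% and 8.82%), and the difference between the 2 sets was not tested. The following stretches show the letters in capitals within the 3 subunits of eIF4F and within 3 members that were lower in SB28 cells, as examples from members called in each direction. A match is a description of sequence and no evidence of binding, and 16 members had no window.
Eif4e, chr3:138527192-138527221, + strand, letters at -64 from the start: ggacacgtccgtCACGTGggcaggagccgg
Eif4g1, chr16:20672661-20672690, + strand, letters at -54 from the start: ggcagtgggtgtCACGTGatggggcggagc
Eif4a1, chr11:69672595-69672624, - strand, letters at -189 from the start: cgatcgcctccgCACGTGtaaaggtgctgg
Eef2k, chr7:120842788-120842817, + strand, letters at -31 from the start: cccggggacggcCACGTGagcccgggcgtg
Eif1b, chr9:120492570-120492599, + strand, letters at -24 from the start: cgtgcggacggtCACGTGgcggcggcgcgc
Eif5a2, chr3:28781148-28781177, + strand, letters at -117 from the start: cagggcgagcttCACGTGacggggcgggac

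Among the 13 genes of start site recognition and the eIF2 complex, 12 were tested, and 8 were higher and 1 lower in each SB28 population (66.7% and 8.33%, beside 29.3% and 33.8% of all genes in mKate2- and 28.0% and 32.1% in mKate2+ cells, the shares against which the counts below are set). Eif1a, which encodes a form of eIF1A that keeps the scanning ribosome open, was at 65.6, 80.8 and 89.8 CPM in astrocytes, 233, 198 and 248 in mKate2- and 226, 173 and 233 in mKate2+ cells. All 6 SB28 libraries lay above all 3 astrocyte libraries, and the log2 fold changes over astrocytes, with their standard errors, were 1.54 ± 0.14 (adjusted P = 6.81e-05) for mKate2- and 1.49 ± 0.16 (adjusted P = 0.000178) for mKate2+ cells, an order kept below. Its X-linked paralog Eif1ax was at 127, 152 and 135 CPM in astrocytes, 196, 157 and 186 in mKate2- and 170, 239 and 202 in mKate2+ cells. It rose by 0.40 ± 0.12 (adjusted P = 0.0196) and 0.64 ± 0.17 (adjusted P = 0.012). The 3 eIF2 subunits were all higher in SB28 cells. Eif2s1, the alpha subunit whose phosphorylation slows initiation under stress, was at 95.3, 117 and 99.6 CPM in astrocytes, 246, 203 and 233 in mKate2- and 226, 192 and 237 in mKate2+ cells. It rose without overlap by 1.14 ± 0.12 (adjusted P = 0.000138) and 1.14 ± 0.13 (adjusted P = 0.000228). Eif2s2, the beta subunit, gave 1.11 ± 0.16 (adjusted P = 0.000574) and 1.10 ± 0.16 (adjusted P = 0.000808), with means of 253, 541 and 514 CPM. The gamma subunit gene Eif2s3x, at 101, 165 and 104 CPM in astrocytes, 173, 171 and 196 in mKate2- and 180, 160 and 187 in mKate2+ cells, rose by 0.56 ± 0.19 (adjusted P = 0.0316) and 0.59 ± 0.19 (adjusted P = 0.0327), and astrocyte replicate 2 lay above the lowest mKate2+ library. Without mKate2+ replicate 2 its mKate2+ value was 0.62 with an adjusted P value of 0.0542. The Y-linked copy Eif2s3y was at 0.164, 0.0306 and 44.1 CPM in astrocytes, 0.0368, 0.0836 and 0 in mKate2- and 0, 0 and 0.351 in mKate2+ cells and was not tested, its level resting on astrocyte replicate 3.

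Eif1ad, Eif2a and Eif2d completed the 8 members of this group called higher in both populations. Eif1ad, named for an eIF1A-like domain, was at 38.2, 29.3 and 25.9 CPM in astrocytes, 72.6, 67.1 and 75.2 in mKate2- and 79.9, 72.2 and 73.9 in mKate2+ cells. The groups did not overlap, at log2 fold changes of 1.21 ± 0.17 (adjusted P = 0.000519) and 1.35 ± 0.17 (adjusted P = 0.000437). Eif2d, an initiation and recycling factor that can deliver tRNA without GTP, had means of 55, 94.1 and 92.9 CPM and log2 fold changes of 0.79 ± 0.088 (adjusted P = 0.000187) and 0.83 ± 0.13 (adjusted P = 0.00115). Eif2a, which encodes a separate initiator tRNA-binding factor and not the alpha subunit of eIF2, rose by 0.38 ± 0.11 (adjusted P = 0.0143) and 0.43 ± 0.12 (adjusted P = 0.016). Eif1b, a paralog of Eif1, was the 1 member of the group called lower. It was at 48.5, 44.6 and 35.7 CPM in astrocytes, 20, 17.4 and 18 in mKate2- and 17.8, 28.3 and 19.2 in mKate2+ cells. Every SB28 library lay below every astrocyte library, with log2 fold changes of -1.20 ± 0.16 (adjusted P = 0.000392) and -0.90 ± 0.24 (adjusted P = 0.0131). Eif1 itself, which guards start codon choice, was at 321, 240 and 202 CPM in astrocytes, 295, 273 and 269 in mKate2- and 284, 407 and 287 in mKate2+ cells. It was called in neither population (log2 fold change 0.14 and 0.44, adjusted P = 0.519 and 0.145). Eif5, the GTPase-activating factor of eIF2, and Eif5b, the subunit-joining GTPase, were not called either, with log2 fold changes of -0.08 and -0.0081 in mKate2- and -0.13 and -0.25 in mKate2+ cells. Eif5b stood at 172, 121 and 140 CPM in astrocytes, 144, 131 and 153 in mKate2- and 131, 79.8 and 138 in mKate2+ cells, with its lowest value in mKate2+ replicate 2.

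Of the 5 subunits of eIF2B, the exchange factor that recharges eIF2, 4 were higher in each SB28 population (80%) and Eif2b3 was not called (log2 fold change 0.25 and 0.34, adjusted P = 0.233 and 0.0961). The catalytic epsilon subunit gene Eif2b5 showed the largest difference, with means of 94.3, 150 and 152 CPM and log2 fold changes of 0.68 ± 0.12 (adjusted P = 0.00169) and 0.76 ± 0.13 (adjusted P = 0.00179). Eif2b1, Eif2b2 and Eif2b4 lay between 0.41 and 0.63 on the log2 scale in the 2 comparisons. Summed over the 5 genes, CPM was 287, 264 and 225 in astrocytes, 366, 355 and 381 in mKate2- and 376, 370 and 393 in mKate2+ cells, without overlap.

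The 14 eIF3 genes did not move as a block. In mKate2- cells 10 were higher (71.4%) and 0 lower, and in mKate2+ cells 8 were higher (57.1%) and 0 lower, with median log2 fold changes of 0.53 and 0.65. Eif3j1, whose loosely bound product works at the decoding site, was at 55.9, 62.5 and 55.7 CPM in astrocytes, 127, 115 and 130 in mKate2- and 128, 96.1 and 128 in mKate2+ cells. It rose by 1.11 ± 0.1 (adjusted P = 6.71e-05) and 1.09 ± 0.13 (adjusted P = 0.000344). Eif3h, a regulatory subunit, was at 345, 345 and 256 CPM in astrocytes, 635, 636 and 602 in mKate2- and 614, 714 and 616 in mKate2+ cells, and rose by 1.00 ± 0.15 (adjusted P = 0.000708) and 1.12 ± 0.17 (adjusted P = 0.0011). In both genes every SB28 library exceeded every astrocyte library. Eif3d, Eif3e, Eif3l and Eif3m rose in both populations by 0.59 to 0.79 on the log2 scale, and Eif3b and Eif3g by 0.41 to 0.72. The largest core subunit, Eif3a, was at 468, 497 and 489 CPM in astrocytes, 607, 572 and 646 in mKate2- and 616, 353 and 584 in mKate2+ cells. It was called higher in mKate2- cells (0.34 ± 0.10, adjusted P = 0.0191) but not in mKate2+ cells (0.16 ± 0.19, adjusted P = 0.492), where replicate 2 fell below the astrocytes. Without that replicate the mKate2+ value was 0.35 (adjusted P = 0.0397). Eif3f, a deubiquitinase-related subunit, was at 390, 264 and 226 CPM in astrocytes, 204, 222 and 208 in mKate2- and 225, 265 and 214 in mKate2+ cells. Its log2 fold changes of -0.46 and -0.24 were not called (adjusted P = 0.0862 and 0.382). The remaining uncalled subunits Eif3c, Eif3i and Eif3k lay between -0.0099 and 0.29. Eif3k was at 118, 95 and 74.8 CPM in astrocytes, 98.8, 94.5 and 90.2 in mKate2- and 93.1, 137 and 102 in mKate2+ cells. Per length of annotated exons, the 12 stable subunits ranged from 109 TPM (Eif3e) to 611 TPM (Eif3h) in astrocytes and from 112 TPM (Eif3k) to 1246 TPM (Eif3h) in mKate2- cells. TPM here is the count per base of the union of annotated exons, scaled to the same sum in every library. That union is 6719 bases for Eif3e and 1612 for Eif3h, whose means in astrocytes were 232 and 315 CPM. Their gap in TPM thus rests largely on the length used, and the lengths of the expressed transcripts were not examined. Eif3j2, a near copy of Eif3j1, was at 1.39, 1.38 and 1.17 CPM in astrocytes, 1.99, 2.51 and 2.55 in mKate2- and 2.3, 1.55 and 1.87 in mKate2+ cells. Reads may be split between the 2 genes.

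Within eIF4F and its helpers, paralogs went in opposite directions. Of 10 tested genes, 4 were higher and 3 lower in each population, which is 40% and 30%, beside 29.3% and 33.8% of all genes in mKate2- and 28.0% and 32.1% in mKate2+ cells. The 3 lower genes include Eif4e3, whose call is not read. The cap-binding gene Eif4e was at 160, 178 and 155 CPM in astrocytes, 304, 273 and 323 in mKate2- and 290, 238 and 316 in mKate2+ cells. It was higher in all 6 SB28 libraries than in any astrocyte library, by 0.88 ± 0.11 (adjusted P = 0.000301) and 0.85 ± 0.13 (adjusted P = 0.00103). Eif4e2, a homologue that represses rather than promotes cap-dependent initiation on many mRNAs, was at 87.9, 82.1 and 65.7 CPM in astrocytes, 109, 94.8 and 99 in mKate2- and 97.5, 114 and 101 in mKate2+ cells. It rose by 0.38 ± 0.14 (adjusted P = 0.0454) and 0.48 ± 0.16 (adjusted P = 0.0304). Without mKate2+ replicate 2 the mKate2+ value was 0.38 with an adjusted P value of 0.0878. Eif4e3, an atypical cap-binding paralog, was at 4.05, 2.75 and 6.06 CPM in astrocytes, 0.147, 0.195 and 0.235 in mKate2- and 0.139, 0.0764 and 0.146 in mKate2+ cells. The SB28 values rested on 3 to 7 counts a library against 90 to 213 in astrocytes. The gene passed the filter only through the astrocytes, so its call is not read as a result and no fold is given. Eif4e1b, the oocyte form, had 0 counts in every SB28 library, which allows up to 0.0764 to 0.11 CPM, and 1 count in astrocyte replicate 3.

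The scaffold Eif4g1 was at 454, 485 and 566 CPM in astrocytes, 1104, 1018 and 1239 in mKate2- and 1144, 831 and 1167 in mKate2+ cells. It rose by 1.18 ± 0.13 (adjusted P = 0.000177) and 1.13 ± 0.16 (adjusted P = 0.000689) on the log2 scale. Its paralog Eif4g3 was at 148, 138 and 205 CPM in astrocytes, 48.6, 43.4 and 48.6 in mKate2- and 48.9, 32.6 and 45.6 in mKate2+ cells, with log2 fold changes of -1.79 ± 0.16 (adjusted P = 6.47e-05) and -1.88 ± 0.20 (adjusted P = 0.000188). The 2 genes thus separated the populations in opposite directions and without overlap. Eif4g2, also called Dap5, which lacks the eIF4E site and serves cap-independent initiation, was at 1114, 1364 and 1474 CPM in astrocytes, 1521, 1499 and 1659 in mKate2- and 1528, 1244 and 1717 in mKate2+ cells. It was not called (0.26 ± 0.13 and 0.26 ± 0.16, adjusted P = 0.119 and 0.200). The helicase Eif4a1 was at 747, 692 and 549 CPM in astrocytes, 1135, 1090 and 1201 in mKate2- and 1213, 1118 and 1229 in mKate2+ cells. It rose without overlap by 0.80 ± 0.15 (adjusted P = 0.00232) and 0.91 ± 0.16 (adjusted P = 0.00174). Eif4a2, its paralog linked to microRNA-mediated repression, was at 453, 542 and 448 CPM in astrocytes, 254, 229 and 270 in mKate2- and 230, 160 and 256 in mKate2+ cells. All SB28 libraries lay below the astrocytes, and the log2 fold changes were -0.92 ± 0.12 (adjusted P = 0.00038) and -1.09 ± 0.18 (adjusted P = 0.00139). The helicase partners Eif4b, at 759, 811 and 674 CPM in astrocytes, 746, 810 and 750 in mKate2- and 798, 753 and 711 in mKate2+ cells, and Eif4h, with means of 309, 346 and 348 CPM, were not called, with log2 fold changes of 0.053 and 0.086 for Eif4b and 0.17 and 0.24 for Eif4h. Eif4a3, the eIF4A relative that sits in the exon junction complex, rose by 0.57 ± 0.16 (adjusted P = 0.0139) and 0.70 ± 0.16 (adjusted P = 0.00632).

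The eIF4E-binding proteins, which restrain eIF4F, were higher in SB28 cells as well. All 3 tested genes were called in each population. Eif4ebp1 was at 148, 120 and 66.7 CPM in astrocytes, 276, 262 and 221 in mKate2- and 274, 487 and 245 in mKate2+ cells. The log2 fold changes were 1.19 ± 0.28 (adjusted P = 0.00648) and 1.68 ± 0.38 (adjusted P = 0.00647). In this gene mKate2+ replicate 2 held the highest value of the 9 libraries. Without that replicate the mKate2+ value was 1.26 (adjusted P = 0.0177). Eif4ebp2, the main form in brain, was at 28.1, 41.5 and 40.1 CPM in astrocytes, 68.8, 63.6 and 74 in mKate2- and 72.7, 63.5 and 75.5 in mKate2+ cells. It rose by 0.93 ± 0.15 (adjusted P = 0.00119) and 1.02 ± 0.16 (adjusted P = 0.00125). Eif4enif1, the shuttling protein 4E-T that carries eIF4E into the nucleus and to P-bodies, was at 53.9, 57.3 and 61.6 CPM in astrocytes, 79.4, 75.5 and 83.6 in mKate2- and 78.4, 57.3 and 75.6 in mKate2+ cells. It overlapped in mKate2+ replicate 2 and rose by 0.48 ± 0.095 (adjusted P = 0.00306) and 0.36 ± 0.13 (adjusted P = 0.0465). Eif4ebp3, at 0.491, 0.122 and 0.199 CPM in astrocytes, 0.405, 0.195 and 0.302 in mKate2- and 0.0832, 0.0255 and 0.176 in mKate2+ cells, was not tested, and it shares exons with a read-through gene.

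**Figure D4:**
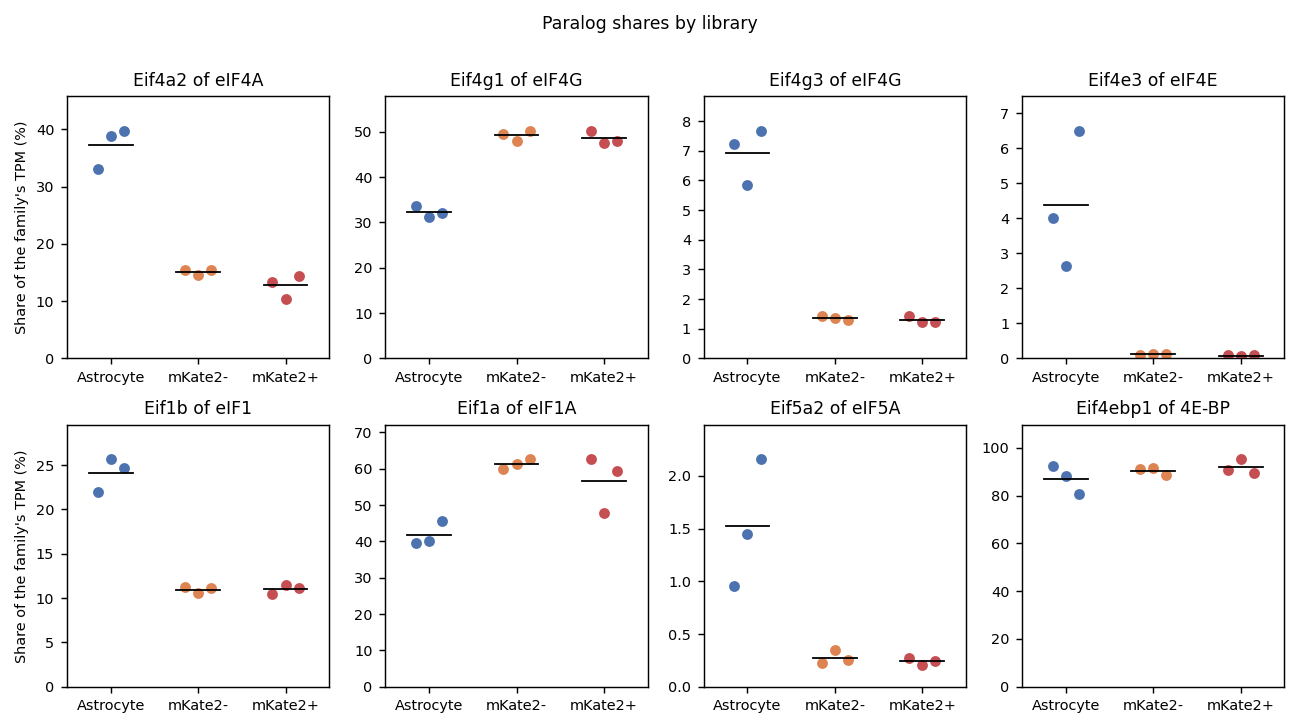
Share of a paralog family's summed TPM (vertical axis of each panel, %, starting at 0) held by the named gene in each library, with a line at the mean of each group of 3. Astrocyte points lie above all SB28 points for Eif4a2, Eif4g3, Eif4e3, Eif1b and Eif5a2, below them for Eif4g1 and Eif1a, and overlap them for Eif4ebp1. Eif4e3 passed the filter only through the astrocytes, so its separation is not read as a result.

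The opposite movements of paralogs were also expressed as shares of each family's summed TPM, given as mean and SD over 3 libraries. Eif4a2 made up 37.2% ± 3.71 in astrocytes, 15.1% ± 0.495 in mKate2- and 12.7% ± 2.1 in mKate2+ cells of eIF4A transcripts per length, the rest being Eif4a1. Among Eif4g1, Eif4g2 and Eif4g3, Eif4g1 made up 32.3% ± 1.23 in astrocytes, 49.3% ± 1.2 in mKate2- and 48.6% ± 1.46 in mKate2+ cells, and Eif4g3 6.92% ± 0.96 in astrocytes, 1.36% ± 0.0701 in mKate2- and 1.3% ± 0.107 in mKate2+ cells. For each of these 3 shares the astrocyte and SB28 libraries did not overlap. Eif1b made up 24.1% ± 1.93 in astrocytes, 11% ± 0.329 in mKate2- and 11% ± 0.512 in mKate2+ cells of Eif1 and Eif1b together, and Eif1a 41.8% ± 3.38 in astrocytes, 61.4% ± 1.33 in mKate2- and 56.6% ± 7.85 in mKate2+ cells of the eIF1A pair, where the mKate2+ spread came from replicate 2 at 47.7%. Eif4e3 made up 4.38% ± 1.97 in astrocytes, 0.121% ± 0.0271 in mKate2- and 0.0777% ± 0.0194 in mKate2+ cells of the eIF4E family. This gene passed the filter only through the astrocytes, so its share is not read as an opposite movement. The share of Eif4ebp1 among the eIF4E-binding proteins proper overlapped between populations, unlike those of Eif4a2, Eif4g1 and Eif4g3. It was 87.1% ± 5.85 in astrocytes, 90.3% ± 1.61 in mKate2- and 91.8% ± 3.09 in mKate2+ cells. Eif3j1 held between 94.3 and 96.5% of its pair in the 9 libraries.

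Of the 3 genes for eIF5A and eIF6, 2 were higher and 1 lower in each SB28 population (66.7% and 33.3%), the lower share being near that of all genes. Eif5a, the hypusine-bearing factor that relieves stalled ribosomes, was at 697, 631 and 492 CPM in astrocytes, 1548, 1376 and 1614 in mKate2- and 1548, 1789 and 1663 in mKate2+ cells. Every SB28 library was at least 1376 CPM and no astrocyte library exceeded 697 CPM, giving log2 fold changes of 1.33 ± 0.17 (adjusted P = 0.000308) and 1.53 ± 0.18 (adjusted P = 0.000297). Its paralog Eif5a2 was lower, at 14.2, 19.6 and 23 CPM in astrocytes, 7.36, 10.1 and 8.78 in mKate2- and 9.1, 7.69 and 8.63 in mKate2+ cells. The log2 fold changes were -1.09 ± 0.21 (adjusted P = 0.00279) and -1.08 ± 0.20 (adjusted P = 0.00273), and the gene held 1.52% ± 0.608 in astrocytes, 0.276% ± 0.0638 in mKate2- and 0.242% ± 0.0372 in mKate2+ cells of the pair. Eif6, which keeps the large ribosomal subunit from joining too early, was at 126, 93.6 and 68.5 CPM in astrocytes, 197, 186 and 195 in mKate2- and 207, 237 and 194 in mKate2+ cells. It rose without overlap by 1.01 ± 0.22 (adjusted P = 0.00432) and 1.22 ± 0.24 (adjusted P = 0.00312).

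Among the 6 elongation factors, 2 were higher in each population, 2 were lower in mKate2- and 1 in mKate2+ cells, and the most abundant of them was not called. The shares, 33.3% higher in each population and 33.3% and 16.7% lower, stand beside 29.3% and 28.0% higher and 33.8% and 32.1% lower of all genes, so the counts are not read as a result about elongation factors. The lower calls include Eef1a2, whose call is not read, and apart from it 1, Eef2, was lower in mKate2- and 0 in mKate2+ cells. Eef1a1, the transcript with the highest level per length of all members (11990, 13305 and 12707 TPM), was at 9987, 10881 and 7729 CPM in astrocytes, 10248, 10643 and 10009 in mKate2- and 10140, 10398 and 10318 in mKate2+ cells. The populations overlapped, with log2 fold changes of 0.12 ± 0.17 and 0.19 ± 0.17 and adjusted P values of 0.550 and 0.382. Eef2, the next most abundant at 4016, 3004 and 3097 TPM, was at 5011, 4264 and 3621 CPM in astrocytes, 2887, 3276 and 3102 in mKate2- and 3263, 3615 and 3215 in mKate2+ cells. Its difference was called in mKate2- cells (-0.47 ± 0.17, adjusted P = 0.04) and not in mKate2+ cells (-0.28 ± 0.18, adjusted P = 0.205). Eef1g, Eef1d and Eef1b2 encode the complex that recharges eEF1A with GTP. Eef1g was at 1050, 848 and 669 CPM in astrocytes, 1350, 1338 and 1416 in mKate2- and 1418, 1575 and 1455 in mKate2+ cells, and rose by 0.69 ± 0.18 (adjusted P = 0.0119) and 0.87 ± 0.20 (adjusted P = 0.00642). Eef1d, with means of 163, 291 and 317 CPM, rose by 0.84 ± 0.18 (adjusted P = 0.00471) and 1.03 ± 0.20 (adjusted P = 0.00333). Eef1b2 was at 419, 362 and 275 CPM in astrocytes, 459, 407 and 413 in mKate2- and 407, 687 and 434 in mKate2+ cells. It overlapped and was not called (0.29 ± 0.17 and 0.62 ± 0.27, adjusted P = 0.179 and 0.0782). Eef1a2, the form of neurons and muscle, was at 5.15, 1.96 and 5.55 CPM in astrocytes, 0.331, 0.0836 and 0.134 in mKate2- and 0.305, 0.0764 and 0.0585 in mKate2+ cells. The SB28 values rested on 2 to 11 counts a library against 64 to 195 in astrocytes. This gene too passed the filter only through the astrocytes, and its call and fold are left out for that reason. It amounted to 0.0563% ± 0.0325 in astrocytes, 0.00214% ± 0.00153 in mKate2- and 0.00172% ± 0.00163 in mKate2+ cells of eEF1A transcripts. This share is not read as a result either. The 7 neuron markers summed to 53.5, 98.9 and 88.5 CPM in the astrocyte libraries against 48.8, 42.7 and 42.3 CPM in mKate2- and 43.4, 41.5 and 38.6 CPM in mKate2+ libraries. Map2 was the most abundant in astrocytes, at a mean of 36.6 CPM. In mKate2- cells Map2 and Tubb3 had means of 21.5 and 21.1 CPM, and in mKate2+ cells 16.7 and 22.7 CPM. Of the 4 tested, 2 were lower and 1 higher in each SB28 population. Stmn2, 1 of the 2, had means of 31.1, 0.849 and 0.994 CPM and passed the filter only through the astrocytes, so its call is not read. Tubb3 rose by 0.95 ± 0.19 (adjusted P = 0.00336) and 1.12 ± 0.20 (adjusted P = 0.00211), Rbfox3 was at 0 in all 9 libraries and Dcx near 0. Their part in the level of Eef1a2 was not tested.

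Of the enzymes and partners of the elongation factors, Eef2k ranked first among members by adjusted P value in mKate2- cells. The gene encodes the calcium-dependent kinase that phosphorylates and inactivates eEF2. It was at 58.5, 57.4 and 48.8 CPM in astrocytes, 11.7, 16 and 13.2 in mKate2- and 12.2, 16.1 and 11.8 in mKate2+ cells. Every SB28 library was at or below 16.1 CPM and every astrocyte library at or above 48.8 CPM, at -2.0 ± 0.16 (adjusted P = 4.49e-05) and -1.96 ± 0.19 (adjusted P = 0.000134). Eef1e1, a scaffold of the multi-tRNA synthetase complex with means of 32, 60.6 and 64.1 CPM, rose by 0.94 ± 0.18 (adjusted P = 0.00268) and 1.08 ± 0.16 (adjusted P = 0.000992). The lysine methyltransferase gene Eef1akmt1 rose by 0.67 ± 0.18 (adjusted P = 0.0125) and 0.90 ± 0.20 (adjusted P = 0.00599). Eef1akmt3 had means of 0.317, 1.34 and 1.05 CPM and passed the filter only through the mKate2- libraries, so its call is not read as a result. Its exons overlap those of Mettl1 on the other strand, and it did not pass the filter in the comparison of mKate2+ cells with astrocytes. Eef2kmt was called in mKate2- cells only (0.36 ± 0.12, adjusted P = 0.0348), and Eef1akmt2 in neither population.

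Other translation genes, listed for context, were compared in the same fits. Of 22 genes of cytosolic aminoacyl-tRNA synthetases and their scaffolds, 21 were higher in each SB28 population (95.5%), with median log2 fold changes of 1.24 and 1.26. By adjusted P value the threonine enzyme Tars ranked first of this list in mKate2- cells, at 79, 75.7 and 70.6 CPM in astrocytes, 223, 210 and 200 in mKate2- and 244, 182 and 194 in mKate2+ cells. It rose there by 1.5 ± 0.11 (adjusted P = 2.43e-05). Qars was the exception (log2 fold change -0.017 and 0.16, adjusted P = 0.924 and 0.426). Of 9 genes that make hypusine on eIF5A or diphthamide on eEF2, 6 were higher in each population (66.7%), led by the diphthamide enzyme Dph5 (1.38 ± 0.15 and 1.44 ± 0.17). Of 8 termination and recycling genes, 5 were higher and 1 lower in each (62.5% and 12.5%), led by the recycling ATPase Abce1 (1.55 ± 0.15 and 1.55 ± 0.19).

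Regulators and helpers of the factors were compared in the same fits, where 29.3% of all genes were higher and 33.8% lower in mKate2- and 28.0% and 32.1% in mKate2+ cells. Of 8 eIF2 alpha kinases, phosphatase subunits and their partners, 3 were higher and 3 lower in mKate2- cells (37.5% each) and 2 and 2 in mKate2+ cells (25% each), shares near those of all genes. The constitutive phosphatase subunit gene Ppp1r15b rose by 1.45 ± 0.12 (adjusted P = 5.28e-05) and 1.43 ± 0.14 (adjusted P = 0.000132). The stress-induced Ppp1r15a had log2 fold changes of -0.69 ± 0.14 (adjusted P = 0.00296) and -0.67 ± 0.15 (adjusted P = 0.00551). Of 12 mTOR, S6 kinase and MNK pathway genes, 6 were higher and 4 lower in mKate2- (50% and 33.3%) and 5 higher and 4 lower in mKate2+ cells (41.7% and 33.3%), the lower shares being near those of all genes. By adjusted P value Rptor, the mTORC1 scaffold, ranked first and was higher (0.89 ± 0.089 and 0.85 ± 0.12). Larp1 came next and was higher too (0.98 ± 0.12 and 0.90 ± 0.15). The 4 lower in each population were Pdcd4, an inhibitor of eIF4A (-0.70 ± 0.14 and -0.75 ± 0.14), Tsc2 (-0.38 and -0.41), Mlst8 (-0.42 and -0.56) and Mtor itself (-0.31 and -0.39). Of 5 poly(A)-binding proteins and partners 3 were higher in each population (60%), and Paip1 was lower in mKate2- cells (-0.44 ± 0.09). Of 6 initiation helicases and ABCF proteins 3 were higher in mKate2- and 2 in mKate2+ cells and 0 lower. Of 8 genes of selenocysteine insertion and mitochondrial translation 3 were higher and 1, Secisbp2, lower in each population. The shares higher in the last 2 lists were 50% and 37.5% in mKate2- and 33.3% and 37.5% in mKate2+ cells. Ranked first in these lists in mKate2- cells were Pabpc4 (0.83 ± 0.13), Abcf2 (1.12 ± 0.11) and Gfm1 (1.08 ± 0.10).

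The counts of members were recomputed without the libraries that stood apart. Without astrocyte replicate 3, the members called higher numbered 33 of 60 for mKate2- (55%, beside 31% of all genes) and 30 of 59 for mKate2+ cells (50.8%, beside 26.4%). With the fold requirement they numbered 7 and 9 in place of 10 and 13, which is 11.7% and 15.3% of members beside 12.2% and 12.1% of all genes. Without mKate2+ replicate 2, 33 were higher and 7 lower in mKate2+ cells (55.9% and 11.9%, beside 26.1% and 29.9% of all genes). Leaving out astrocyte replicate 1 gave 40 of 60 higher for mKate2- (66.7%, beside 31.7%) and 35 of 59 for mKate2+ cells (59.3%, beside 27.7%). Leaving out mKate2- replicate 2 gave 30 of 59 higher for mKate2- cells (50.8%, beside 24.9%). The range over every library left out is given under the processing below. Reads of Eef1a1, Eif1, Eif4a1 and Eif5a can also match processed pseudogenes, and Eif4a2 hosts small nucleolar RNAs. Exons of Eif5b, Eif3d, Eif3j1, Eif1ad and Eef2kmt, among other members, overlap those of other genes on the opposite strand. The counts of all these genes carry that uncertainty, and the strand setting of the counting is not given.

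The comparison of mKate2+ with mKate2- SB28 cells asks whether tumor cells that acquired astrocyte mitochondria differed in the factors from tumor cells sorted from such co-cultures that did not. Of 58 tested members, 0 were higher and 0 lower at an unadjusted P value below 0.05 by edgeR and 0 by DESeq2, both without a replicate block (with 168 higher and 149 lower among all genes by DESeq2), beside 0.759% higher and 1.27% lower of 11854 genes by edgeR. Without the filter on low counts, 5 of 62 members were higher at that threshold (8.06%, beside 3.23% of 25423 genes), among them Eif4ebp1, Eif3k and Eif3g. A joint rule was applied in both directions, adapted from the study's selection of upregulated genes. It asked for a fold above 1.5, P below 0.05 before adjustment and more than 50 normalized counts on average, the average being a choice made here. By this rule 0 members passed, against 23 higher and 20 lower genes in all by edgeR and 62 higher and 21 lower by DESeq2, which also gave 0 members. At an adjusted P value below 0.05, 0 of all 11854 genes were called, and the smallest adjusted P value was 0.923. The members' log2 fold changes ran from -0.28 to 0.48 with a median of 0.056, 39 above and 19 below 0, and the median standard error was 0.114 (0.126 for all genes). CPM did not overlap between the populations for 2 members, Eef1g and Eif3l, both higher in mKate2+ cells (3.45%, beside 2.16% of all genes), and for 0 lower members (6.67% of all genes). The summed share of all members was 3.01% ± 0.0287 (SD, n = 3) in mKate2- and 3.07% ± 0.0287 (SD, n = 3) in mKate2+ cells, and that of the 61 members other than Eef1a1 and Eef2 was 1.67% ± 0.07 (SD, n = 3) and 1.71% ± 0.0367 (SD, n = 3), which overlapped.

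The members with the smallest unadjusted P values in each direction were given a second time without mKate2+ replicate 2. Eif4ebp1 had the largest positive value, 0.48 ± 0.27 (unadjusted P = 0.122), with 487 CPM in that replicate and 221 to 276 CPM in the other 5 SB28 libraries. Without that replicate the log2 fold change was 0.039. Eif3g, at 107, 91.9 and 94.9 CPM in mKate2- and 105, 128 and 102 in mKate2+ cells, Eif6 and Eif3f were 0.25, 0.20 and 0.21 higher with unadjusted P values of 0.102, 0.120 and 0.129, and came to 0.083, 0.062 and 0.056 without it. Eif3k was 0.29 higher (unadjusted P = 0.122) and 0.051 without it. On the lower side, Eif5b (-0.26, unadjusted P = 0.16), Eif3a (-0.19, 0.287), Eif4a2 (-0.18, 0.245), Eif4enif1 (-0.13, 0.245) and Eif3j2 (-0.26, 0.299) came to -0.081, -0.016, -0.043, -0.042 and -0.17 without it. Values nearest to 0 included Eif2s1 (-0.011 ± 0.099), Eif4g2 (-0.014 ± 0.11) and Eif5a2 (-0.0023 ± 0.15). In that replicate the proliferation markers summed to 737 CPM against 1025 to 1140 CPM in the other SB28 libraries, and its part in these values was not tested.

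**Figure D5:**
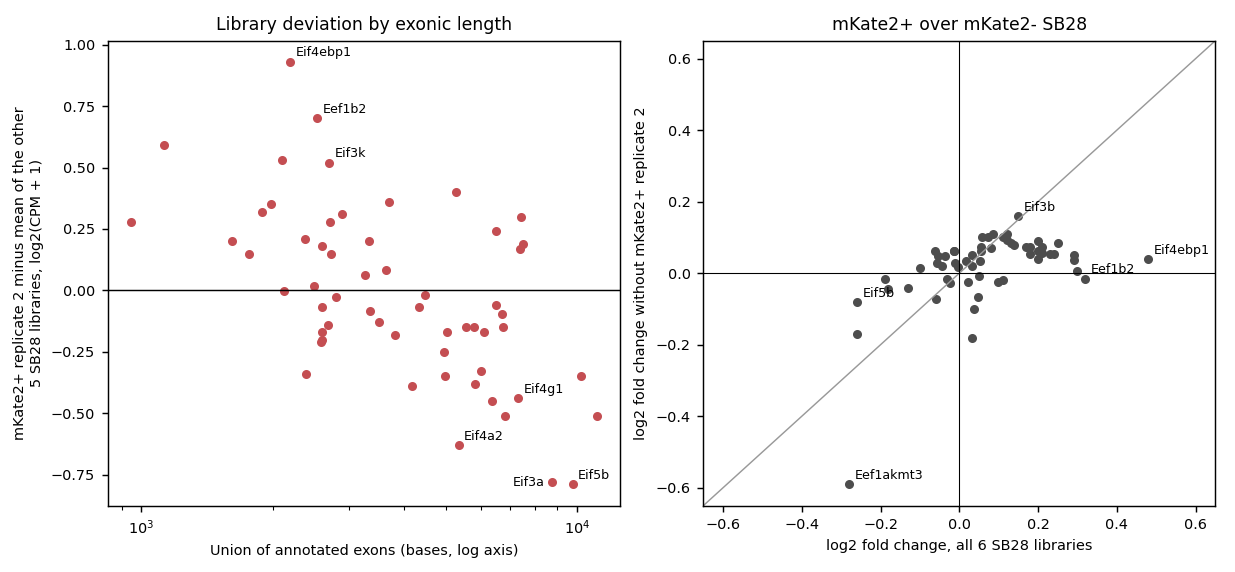
Left, deviation of mKate2+ replicate 2 from the mean of the other 5 SB28 libraries (vertical axis, log2(CPM + 1)) against the union of annotated exons (horizontal axis, bases, log scale) for 58 members, falling from 0.93 for Eif4ebp1 to -0.79 for Eif5b. Right, log2 fold change of mKate2+ over mKate2- SB28 cells for the same members with all 6 libraries (horizontal axis) and without mKate2+ replicate 2 (vertical axis), where the points lie closer to 0 on the vertical than on the horizontal axis for Eif4ebp1 (0.039 against 0.48) and Eif5b, and Eef1akmt3, a gene near 1 CPM, lies at -0.59.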

How the data were processed

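RNA was sequenced from 3 astrocyte, 3 mKate2- SB28 and 3 mKate2+ SB28 libraries. Per the submitters' processing notes the authors trimmed reads with Trimmomatic 0.36, and per these and the study's methods they aligned them with STAR 2.5.2b and counted them per gene with featureCounts (Subread 1.5.2), and they deposited raw counts per Ensembl gene. The annotation release and strand setting are not given in the sources used here. The wording of the sort gates for the cell dye differed between labels, so libraries were grouped by their names.

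Names, positions and the union of exons came from GENCODE M21 (GRCm38), of which 259 of 49315 IDs had no match. Counts were tested with edgeR 4.0.16 (R 4.3.3, quasi-likelihood F test, TMM normalization, a gene was tested if at least 2 of the 6 libraries exceeded 1 CPM, Benjamini-Hochberg adjustment over all genes tested). The standard error is the absolute log2 fold change divided by the square root of F. DESeq2 1.42.0, RLE normalization, no filter, a fit over all 9 libraries, removal of a loess trend on exonic length in each library, a block for the replicate number and leaving out each library were alternatives. The length trend was centred on 0 within each library after an uncentred one had moved the median of all genes. TPM was computed from counts and exon lengths for comparisons between genes. Library totals allow a gene with 0 counts up to 0.0764 to 0.123 CPM (3 counts), which covers counting error only.

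The members, the role groups, the other gene lists and the marker lists were chosen with earlier results of these data known. Values in every library are given for the 5 members with the smallest adjusted P value in each direction past both thresholds against astrocytes, the 5 with the smallest unadjusted P value in each direction between SB28 populations, the 10 with the highest TPM and the members of 10 paralog families. In each other list 1 or 2 genes are named by their adjusted P value. Some further genes are named because they were called lower or not called. The tests were run on simulated counts with the same fixed spread for every gene, which checks the code and not the calls in these libraries. Pairs of replicates differed beyond sampling noise, so no library was counted as a duplicate. The summed level of the microglia and macrophage list is not reported here.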

Additional observations from a re-analysis of the deposited data

How the results depend on the processing

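Against astrocytes, all counts of members kept within 1.5 times their value under every alternative run. Leaving out 1 library at a time gave 27 to 40 members higher in mKate2- and 27 to 35 in mKate2+ cells (45% to 66.7% and 45.8% to 59.3% of tested members, beside 23.9% to 31.7% and 22.5% to 27.7% of all genes), and a median log2 fold change of the members of 0.45 to 0.64 in mKate2+ cells, the lowest without astrocyte replicate 3. Between the SB28 populations, members higher at an unadjusted P value below 0.05 numbered 5 without the filter on low counts (8.06%, beside 3.23% of all genes). With 1 library left out they numbered 0 to 3. There were 3 without mKate2+ replicate 1 (5.17%, beside 4.44% of all genes) and 1 without mKate2+ replicate 3 (1.72%, beside 3.2%). Members passing the fold, P value and count criteria numbered 0 to 1, the 1 being Eif4ebp1 at 0.66 without mKate2+ replicate 3. The shares with 1 library left out lie near or below those of all genes, and the count by the fold, P value and count criteria stands without such a share. Neither is read as a result about the members. The cause of these changes in count was not tested. The labels do not say that a replicate number marks a shared co-culture, and same-numbered deviations correlated by -0.15 to 0.275, so the numbers were not taken as pairs. With the replicate number as a block, 35 members were higher and 7 lower in mKate2- cells (58.3% and 11.7%, beside 28.8% and 32.5% of all genes). In mKate2+ cells 33 were higher and 7 lower (55.9% and 11.9%, beside 26.1% and 29.9%). Between the SB28 populations 1 was lower (Eif5b, -0.28), which is 1.72% of members beside 2.6% of all genes and is not read as a result about the members. Shares of families computed from CPM in place of TPM moved for 6 genes, to 42.2% for Eif4a2 in astrocytes against 18% in mKate2- cells, and the order of the means of astrocytes and SB28 cells stayed as it was. With 3 libraries a group, the median standard error of 0.114 between the SB28 populations limits what could be detected, and genes near 1 CPM rest on few counts.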

Other observations

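The Y-linked eIF2 gamma gene Eif2s3y, looked at more closely after its values were seen, was present in 1 of 9 libraries, at 44.1 CPM in astrocyte replicate 3 and at most 0.351 CPM elsewhere. Other Y-linked genes were high in the same library, with Ddx3y at 114 CPM, Kdm5d at 32.8 CPM and Uty at 44.3 CPM, against at most 0.556 CPM in the other 8. Xist, the X-inactivation RNA, stood at 122, 200 and 10.9 CPM in the astrocytes, 90, 48.6 and 67 CPM in mKate2- and 61.1, 21.5 and 45.8 CPM in mKate2+ SB28 cells. Eif2s3y made up 28% of the TPM of the eIF2 gamma pair in astrocyte replicate 3 and at most 0.172% in the other 8 libraries. The part of this library's sex-linked genes in the differences of the other members was not tested.

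Dohh, the enzyme that completes hypusine on eIF5A, was the 1 gene of the other translation lists with an unadjusted P value below 0.05 between the SB28 populations (log2 fold change 0.23 ± 0.086, unadjusted P = 0.0313, edgeR), and its adjusted P value was not below 0.923. It was named after its values were seen.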
